A study of Mus musculus with 8 samples.

Results

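Aminoacyl-tRNA synthetases, the enzymes that load each tRNA with its amino acid, were followed as mRNA in B16F0 cells and in the exosomes these cells released. Members were the genes whose symbols follow the naming of this family, such as Gars, Farsa, Kars or Iars2, on transcript clusters with a single gene symbol. The rule found 32 genes of 14860, each measured by 1 transcript cluster, and it used no measured value. Of these, 16 encode enzymes of the cytosol, and 15 with symbols ending in 2 encode enzymes of mitochondria. Tarsl2 also ends in 2 but encodes a further threonyl-tRNA synthetase that is not mitochondrial, so it was kept apart. Members of the family outside these 32 were not analysed here.

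B16F0 is a pigmented mouse melanoma line, and exosomes are vesicles through which cells export protein and RNA. The group called cells consisted of 4 samples of parental B16F0 cells kept for 24 h without serum. The group called exosomes consisted of 4 samples of vesicles taken from serum-free medium that the same line had conditioned for 24 h, so both groups share the line and the serum-free culture. Total RNA of each sample was hybridised to 1 exon array, with the same mass of labelled cDNA per array, and a level is therefore a share of the RNA on that array. Fewer vesicles with a transcript and less of it in each vesicle cannot be told apart. Whether replicates were grown separately is not stated in the labels. The p-values therefore cover only the spread among these 4 samples per group, part or all of which may be technical.

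The array values were log2 intensities between 0.65 and 14.12. Chemosensory receptor genes, which stood in for background, lay at a median of 3.60 ± 0.06 on the cell arrays and 4.20 ± 0.07 on the exosome arrays (SD, n = 4 each). A gene counted as above background where it passed their 95th percentile on each of the 4 arrays of a group, a threshold of 5.70 ± 0.03 for cells and 6.46 ± 0.05 for exosomes. The 75th percentile of all values ran from 8.46 to 8.60 on the cell arrays and from 7.06 to 7.19 on the exosome arrays. These shifts moved with the groups, and their part in the results below was not tested. Markers of pigment cells were above background for 9 of 9 measured genes in both groups, with mean levels of 9.80 to 13.78 in cells and 7.19 to 12.39 in exosomes. Fibroblast markers were above background for 2 of 6 genes in cells and 2 in exosomes, keratinocyte markers for 1 of 4 and 0, and leukocyte markers for 1 of 4 and 0. Of 3 endothelial markers and 1 erythroid marker, 0 were above background in either group. All 9 pigment cell markers fell as deposited, with a median log2 fold change of -2.06, and the lowest values were those of Tyr (-3.70), Gpr143 (-2.60), Pmel (-2.58) and Oca2 (-2.44). The fibroblast genes Col3a1 (0.27) and Col1a1 (0.18) rose as deposited and fell with arrays centred on background genes. Col3a1 was above background on 1 cell array and 0 exosome arrays. Of the leukocyte genes, Cd68 fell (-0.52), and Adgre1 (0.47) and Ptprc (0.30) rose as deposited while above background on no array. Cd68 was higher after quantile normalization and cyclic loess, and neither Adgre1 nor Ptprc was higher with arrays centred on background genes. The part of these moves in the results below was not tested.

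Each synthetase recognises 1 amino acid and its tRNAs, joins them in an ATP-dependent reaction, and so sets the accuracy of translation. Mammals use separate nuclear genes for the cytosolic and the mitochondrial enzyme of most amino acids, while Gars and Kars each encode both forms. Several cytosolic enzymes are held in a large multisynthetase complex, and many cytosolic genes are raised by the transcription factor Atf4 when amino acids are short or the endoplasmic reticulum is stressed.

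As deposited, most synthetase mRNAs made up a smaller share of the RNA in exosomes than in cells, as did most genes of similar level, and 20 of 32 were lower under each of 4 scalings of the arrays. The mRNA of Wars, the cytosolic tryptophanyl-tRNA synthetase, was the only cytosolic one not lower as deposited. Farsa, Farsb and Kars were lower as deposited but not under all 4 scalings. As deposited, 29 of 32 genes fell, 0 rose and 3 did not pass the test (limma, Benjamini-Hochberg adjusted p below 0.05), and 0 were higher at an unadjusted p below 0.05. By the same rule 42.9% of all 23332 transcript clusters were lower and 16.4% higher. The median log2 fold change of exosomes against cells was -1.62 over the 32 genes and -0.20 over all transcript clusters. Genes above background in cells are the nearer comparison, since 31 of the 32 were. Of 9244 such genes 79.5% were lower and 7.33% higher, with a median of -1.29. In level steps of 1 between cell levels of 7 and 12, from 84.7% to 90.1% of genes were lower, so the count of falls lies near that of other genes at these levels. The falls reached at least 2-fold for 20 synthetases, with genes above background on no exosome array taken at their bound, beside 25.4% of all transcript clusters and 51.6% of genes above background in cells. By the fitted values alone the number was 23, beside 31.1% and 59.9%, the added genes being Hars2, Lars2 and Pars2. For the same 29 genes all 4 exosome values lay below all 4 cell values, as they did for 42.0% of all transcript clusters. No such share was taken for genes above background in cells, the nearer comparison, so this count does not set the synthetases apart.

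The count of falls depended on how the arrays were scaled. After quantile normalization 20 fell and 7 rose, after cyclic loess 20 fell and 8 rose, and with arrays centred on background genes all 32 fell. Of genes above background in cells, 49.2% were lower and 32.2% higher after quantile normalization, 46.2% and 35.9% after cyclic loess, and 93.6% and 2.63% with arrays centred on background genes. Over all transcript clusters the shares were 28.2% lower and 28.4% higher, 27.8% and 29.1%, and 71.3% and 4.55%. The median of all transcript clusters moved to 0.05, 0.03 and -0.80 under these 3 scalings. The genes that fell under each of the 4 scalings numbered 20, 12 cytosolic and 8 mitochondrial, beside 26.1% of all transcript clusters and 46.0% of genes above background in cells.

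**Figure D1:**
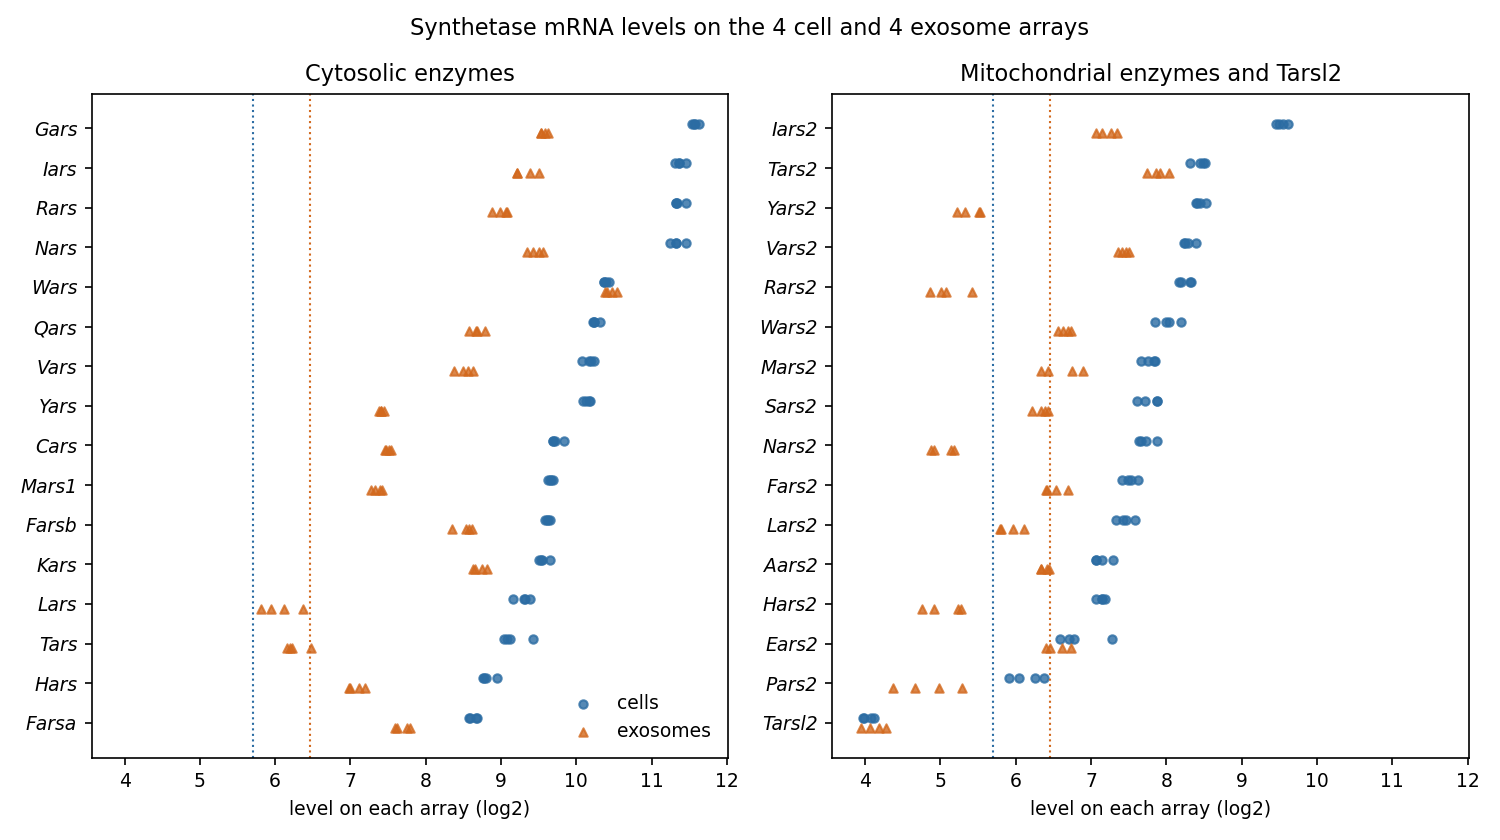
Levels (log2, horizontal axis) of each synthetase mRNA on the 4 cell arrays (circles) and the 4 exosome arrays (triangles), with the mean background thresholds of cells (5.70) and exosomes (6.46) as dotted lines. The groups separate for 29 genes as deposited and overlap for Wars, Ears2 and Tarsl2.

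The cytosolic enzymes had a per-array median level of 9.93 ± 0.06 on cell arrays and 8.52 ± 0.11 on exosome arrays (SD, n = 4 each). Of 16 genes 15 fell as deposited, 13 of them at least 2-fold, with a median log2 fold change of -1.94. All 16 passed the background threshold in cells, and 14 did so in exosomes, beside 57.0% of the 9244 genes above background in cells. The mean cell levels of the 16 ran from 8.63 to 11.57, and no share was taken for genes at such levels.

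The leucine, threonine and tyrosine enzymes had log2 fold changes of -2.73 or lower as deposited. Lars, the leucyl-tRNA synthetase, which also serves as a leucine sensor upstream of mTOR, measured 9.30, 9.16, 9.32 and 9.38 in cells and 5.81, 5.95, 6.12 and 6.37 in exosomes. All exosome values lay under the background threshold, so the mRNA was at least 7.12-fold lower as deposited (log2 fold change -3.23 ± 0.12 SE, limma adjusted p = 8.84e-08). Tars, the threonyl-tRNA synthetase, measured 9.12, 9.04, 9.08 and 9.42 in cells and 6.23, 6.20, 6.16 and 6.47 in exosomes. Tars was above background on 1 of 4 exosome arrays, and its exosome mean of 6.26 lay under the threshold. Its log2 fold change of -2.90 ± 0.11 (limma adjusted p = 8.99e-08) is therefore limited by the background. Yars, the tyrosyl-tRNA synthetase, measured 10.17, 10.13, 10.09 and 10.18 in cells. Its exosome values were 7.41, 7.45, 7.38 and 7.40, above background on every array, and the arrays of each group lay close together. Yars fell 6.66-fold (-2.73 ± 0.06, adjusted p = 2.65e-08).

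The glycine, isoleucine, arginine and asparagine enzymes fell as deposited and stayed well above background on every exosome array. Gars, the glycyl-tRNA synthetase, measured 11.56, 11.54, 11.57 and 11.63 in cells and 9.53, 9.53, 9.63 and 9.58 in exosomes. It fell 4.02-fold (log2 fold change -2.01 ± 0.06 SE, limma adjusted p = 4.53e-08), with a gap of 1.91 between the lowest cell and the highest exosome value. Iars, the isoleucyl-tRNA synthetase, measured 11.46, 11.36, 11.36 and 11.31 in cells and 9.21, 9.21, 9.39 and 9.50 in exosomes, a fall of 4.12-fold. Rars, the arginyl-tRNA synthetase, fell 5.14-fold, from 11.36 ± 0.07 to 9.00 ± 0.09 (SD, n = 4 each). Nars, the asparaginyl-tRNA synthetase, fell 3.68-fold, from 11.34 ± 0.09 to 9.46 ± 0.09.

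Methionyl-tRNA synthetase (Mars1) fell 4.93-fold, from 9.65 ± 0.03 to 7.35 ± 0.07, and cysteinyl-tRNA synthetase (Cars) 4.70-fold, from 9.73 ± 0.07 to 7.49 ± 0.04. Histidyl-tRNA synthetase (Hars) fell 3.36-fold, valyl-tRNA synthetase (Vars) 3.15-fold and glutaminyl-tRNA synthetase (Qars) 2.99-fold. Each of these 5 genes was above background on all exosome arrays, and each fell under all 4 scalings.

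The phenylalanine and lysine enzymes moved least among the cytosolic genes that fell. Farsa and Farsb encode the alpha and beta subunits of phenylalanyl-tRNA synthetase, which act together as a single enzyme. Farsa measured 8.59, 8.68, 8.67 and 8.57 in cells and 7.62, 7.79, 7.59 and 7.75 in exosomes. Farsb measured 9.62, 9.58, 9.65 and 9.61 in cells and 8.35, 8.62, 8.54 and 8.57 in exosomes. As deposited the subunits fell by similar amounts, 1.92-fold for Farsa (log2 fold change -0.94 ± 0.07 SE, limma adjusted p = 5.3e-06) and 2.14-fold for Farsb (-1.10 ± 0.08, adjusted p = 2.56e-06). Kars, the lysyl-tRNA synthetase of both compartments, measured 9.51, 9.53, 9.55 and 9.65 in cells and 8.65, 8.75, 8.63 and 8.81 in exosomes. It fell 1.80-fold as deposited (-0.85 ± 0.07, adjusted p = 9.27e-06). After cyclic loess all 3 rose (log2 fold change 0.53 for Farsa, 0.31 for Farsb and 0.55 for Kars). After quantile normalization Farsa (0.44) and Kars (0.35) rose, and Farsb (0.11, limma adjusted p = 0.19) did not pass the test.

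Wars did not pass the test as deposited, and its level stayed high in exosomes. The gene encodes the cytosolic tryptophanyl-tRNA synthetase, which interferon gamma induces and which cells also secrete. It measured 10.40, 10.37, 10.44 and 10.37 in cells and 10.38, 10.41, 10.47 and 10.54 in exosomes. The groups overlapped, and the log2 fold change was 0.05 ± 0.07 SE (95% interval -0.10 to 0.21, limma adjusted p = 0.513). Among 994 genes with a mean cell level from 10 to 11, the median log2 fold change was -1.68, and 91 genes other than Wars, or 9.16%, had a log2 fold change at least as high. The direction of Wars depended on the scaling: it was higher after quantile normalization (0.93, adjusted p = 2.46e-06) and cyclic loess (1.22, adjusted p = 3.77e-07) and lower with arrays centred on background genes (-0.54, adjusted p = 0.000479). Under all 4 scalings it had the highest log2 fold change of the 16 cytosolic genes.

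**Figure D2:**
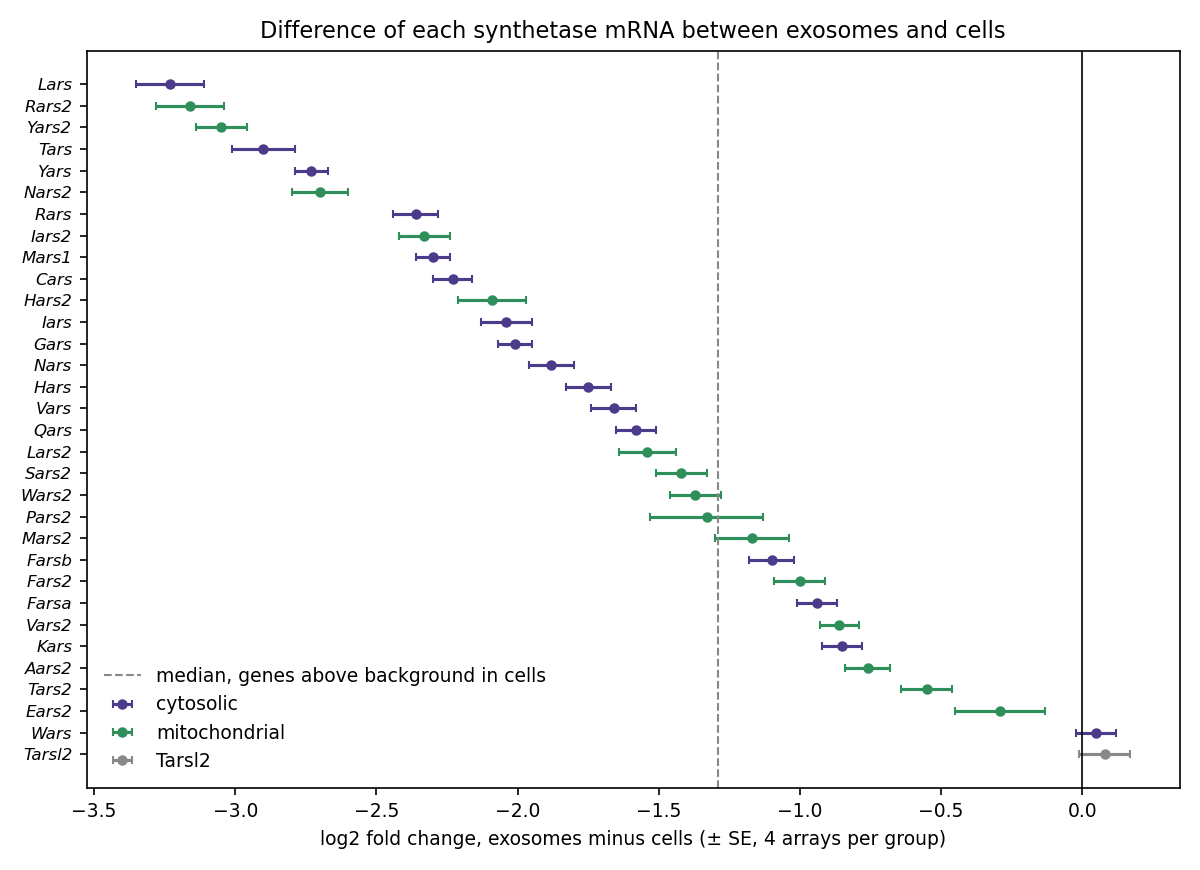
Log2 fold change of exosomes against cells as deposited (points, with SE, 4 arrays per group) for the 32 synthetase genes in order of size. Lars is at -3.23, Wars at 0.05, and the dashed line marks the median of genes above background in cells (-1.29). The points of Farsa, Farsb, Kars, Vars2, Aars2, Tars2, Mars2, Fars2 and Ears2 are above 0 after quantile normalization and cyclic loess, whether or not they passed the test there, and those of Wars and Tarsl2 lie below 0 with arrays centred on background genes.

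The multisynthetase complex was represented by 6 of its enzymes and its 3 scaffold proteins. All 6 enzymes fell as deposited (Lars, Rars, Mars1, Iars, Qars and Kars), with a median log2 fold change of -2.17. The 10 cytosolic enzymes outside the complex had a median of -1.81, with 9 falls. The scaffolds fell as well. Aimp2 measured 8.87, 8.59, 8.76 and 8.68 in cells and 6.19, 6.38, 6.54 and 6.48 in exosomes (log2 fold change -2.33 ± 0.10 SE, limma adjusted p = 1.5e-07). It was above background on 2 of 4 exosome arrays, with a mean of 6.40 under the threshold. Eef1e1, which links the complex to elongation factors, fell 4.12-fold, from 10.89 ± 0.06 to 8.85 ± 0.22 (SD, n = 4 each). Aimp1, whose product is also released as a cytokine, exceeded the background on no exosome array and was at least 2.49-fold lower. Kars, at -0.85, had the smallest fall of the 6 enzymes as deposited, and it rose after quantile normalization and cyclic loess. The other 5 enzymes and the 3 scaffolds fell under all 4 scalings.

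The cytosolic enzymes were also split by structural class. Class I enzymes bind ATP with a Rossmann fold and class II enzymes with an antiparallel sheet. Of 9 cytosolic class I genes 8 fell, with a median log2 fold change of -2.23. Of 7 cytosolic class II genes 7 fell, with a median of -1.75. The range within class I, from -3.23 for Lars to 0.05 for Wars, was wider than the distance between the class medians.

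The mitochondrial enzymes had a per-array median level of 7.75 ± 0.10 on cell arrays and 6.40 ± 0.04 on exosome arrays (SD, n = 4 each). Of 15 genes 14 fell as deposited, 7 of them at least 2-fold by their fold or bound, with a median log2 fold change of -1.37. All 15 were above background in cells but 4 in exosomes, namely Iars2, Wars2, Vars2 and Tars2, and 8 exceeded the threshold on no exosome array. Among the 9244 genes above background in cells, at any level, 57.0% were above it in exosomes. No share was taken for genes at the levels of the mitochondrial enzymes.

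Rars2, the mitochondrial arginyl-tRNA synthetase, measured 8.31, 8.17, 8.19 and 8.33 in cells and 5.01, 5.07, 5.42 and 4.86 in exosomes. It was at least 3.46-fold lower as deposited (log2 fold change -3.16 ± 0.12 SE, limma adjusted p = 9.21e-08), with all exosome values under the threshold of either group. Yars2, the tyrosine enzyme, measured 8.52, 8.41, 8.45 and 8.40 in cells and 5.22, 5.51, 5.33 and 5.53 in exosomes and was at least 3.96-fold lower (-3.05 ± 0.09, adjusted p = 3.74e-08). Nars2, the asparagine enzyme, was at least 2.41-fold lower, with values of 7.64 to 7.88 in cells and 4.87 to 5.18 in exosomes.

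Iars2, the isoleucine enzyme, was the mitochondrial gene that fell most while staying above background on every exosome array. It measured 9.62, 9.50, 9.45 and 9.55 in cells and 7.35, 7.06, 7.27 and 7.14 in exosomes, a fall of 5.02-fold as deposited. Hars2, Lars2 and Sars2, the histidine, leucine and serine enzymes, exceeded the background on no exosome array. As deposited they were at least 1.60-fold, 1.99-fold and 2.48-fold lower. After quantile normalization their fitted log2 fold changes were -1.64, -0.75 and -0.30, and after cyclic loess -1.60, -0.59 and -0.24. The bounds of Lars2 and Sars2 therefore hold only as deposited. Wars2, the tryptophan enzyme, fell 2.58-fold as deposited, from 8.02 ± 0.15 to 6.65 ± 0.07 (SD, n = 4 each), and did not pass the test after quantile normalization (-0.09) or cyclic loess (-0.05). Pars2, the proline enzyme, measured 5.91 to 6.38 in cells and 4.37 to 5.28 in exosomes (log2 fold change -1.33 ± 0.20 SE), and no fold is given because its cell levels lay under the exosome threshold.

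The remaining mitochondrial genes that passed the test had smaller falls as deposited, and none of them was lower after quantile normalization or cyclic loess. Mars2, the methionine enzyme, fell 2.25-fold and was above background on 2 of 4 exosome arrays. Fars2, the phenylalanine enzyme, was above background on 3 of 4 and fell by an amount that rounds to 2.00-fold but lies just under it. Neither passed the test after quantile normalization (0.04 and 0.14) or cyclic loess (0.08 and 0.16). Vars2, the valine enzyme, measured 8.40, 8.25, 8.24 and 8.29 in cells and 7.36, 7.47, 7.41 and 7.50 in exosomes, a fall of 1.81-fold as deposited and a rise after quantile normalization (0.52) and cyclic loess (0.59). Tars2, the threonine enzyme, measured 8.51, 8.31, 8.48 and 8.45 in cells and 7.74, 8.03, 7.86 and 7.92 in exosomes. It fell 1.46-fold as deposited (log2 fold change -0.55 ± 0.09 SE, limma adjusted p = 0.00054) and rose after quantile normalization (0.81) and cyclic loess (0.92). Aars2, the alanine enzyme, was at least 1.61-fold lower as deposited, and its log2 fold change turned to 0.23 after quantile normalization and 0.24 after cyclic loess.

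Ears2, which charges the mitochondrial glutamate and glutamine tRNAs, did not pass the test as deposited. It measured 7.28, 6.59, 6.77 and 6.71 in cells and 6.73, 6.40, 6.62 and 6.46 in exosomes, so that the groups overlapped, with 1 cell array above the rest, and it was above background on 3 of 4 exosome arrays. Its log2 fold change was -0.29 ± 0.16 SE (95% interval -0.65 to 0.07, limma adjusted p = 0.15), or -0.14 without cells replicate 1. It was higher after quantile normalization (0.69) and lower with arrays centred on background genes (-0.88). Tarsl2 was not above background on any array, with values of 3.97 to 4.12 in cells and 3.95 to 4.28 in exosomes.

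Falls were also set against the level in cells, because a dim gene has little room to fall. For genes with a mean cell level from 7 to 8 the median log2 fold change was -1.21, and from 9 to 10 it was -1.75. Of the 16 cytosolic genes 10 fell below the median of all genes at their level, as did 8 of the 15 mitochondrial genes. Gars, Iars, Nars and Rars, at levels from 11 to 12, were all below that median of -1.68. At levels from 10 to 11, Yars was below it and Qars, Vars and Wars were above. Across the 31 genes above background in cells, the level in cells and the level in exosomes correlated with r = 0.829 and rho = 0.824. The level in cells and the log2 fold change gave r = -0.244 and rho = -0.27. Within the 16 cytosolic genes these r values were 0.732 and -0.043, and within the 15 mitochondrial genes 0.485 and -0.383. These are correlations across genes that share the same 8 arrays and differ in probe response.

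**Figure D3:**
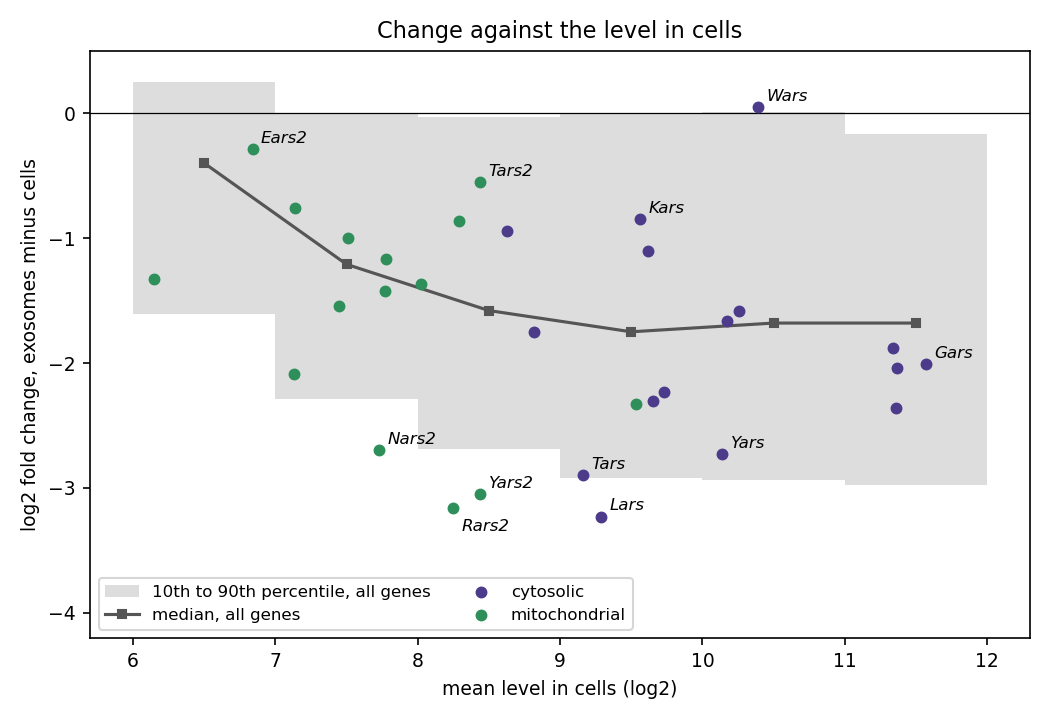
Log2 fold change of exosomes against cells as deposited (vertical axis) against mean level in cells (log2, horizontal axis) for the 31 synthetase genes above background in cells, over the median (squares) and the 10th to 90th percentile (grey) of all genes in level steps of 1. Wars lies just above the grey band, and Lars, Rars2, Yars2 and Nars2 lie below it, these 4 with exosome levels at background. The same 9 genes as in the ranked plot have values above 0 after quantile normalization and cyclic loess, and Wars has one below 0 with arrays centred on background genes.

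Cytosolic and mitochondrial enzymes of the same amino acid were compared directly, by testing whether the difference between their log2 values changed between the groups. The comparison covered 12 gene pairs for 11 amino acids, with Farsa and Farsb both set against Fars2. With 4 arrays against 4, the smallest two-sided p that the exact permutation test allows is 0.0286, which Benjamini-Hochberg adjustment over the 12 pairs raised to 0.0429. In 8 pairs the changes differed at this limit, 4 with the lower log2 fold change in the cytosolic gene and 4 with the lower one in the mitochondrial gene. All 8 kept their direction and passed again after quantile normalization and cyclic loess. In 4 of the 8, for leucine, asparagine, arginine and tyrosine, at least 1 gene exceeded the background on no exosome array, and which mRNA fell more cannot be read there. In the threonine and methionine pairs Tars exceeded it on 1 and Mars2 on 2 of 4 exosome arrays, so the falls of these genes are limited by the background.

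The threonine pair had the widest difference. The log2 fold change was lower in Tars than in Tars2, with a difference of -2.35 ± 0.12 SE (exact permutation test, adjusted p = 0.0429). The methionine pair differed by -1.13 ± 0.15 and the valine pair by -0.80 ± 0.04, again with the lower log2 fold change in the cytosolic gene. Mars2 was above background on 2 of 4 exosome arrays, which limits the reading of its fall as deposited. After quantile normalization and cyclic loess Mars2 (0.04 and 0.08) did not pass the test, and Vars2 (0.52 and 0.59) rose. The leucine pair differed by -1.69 ± 0.16 as measured, but neither Lars nor Lars2 was above background on any exosome array.

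The tryptophan pair was unequal in the opposite direction. The log2 fold change was higher in Wars than in Wars2 by 1.42 ± 0.09 SE, with both genes above background on all exosome arrays. The asparagine pair (Nars and Nars2) differed by 0.82 ± 0.11, the arginine pair by 0.80 ± 0.15 and the tyrosine pair by 0.31 ± 0.08. In these last 3 pairs the mitochondrial mRNA exceeded the background on no exosome array, and its log2 fold change is therefore limited by the background there. The bounds of Nars2 (at least 2.41-fold), Rars2 (at least 3.46-fold) and Yars2 (at least 3.96-fold) lie under the falls of Nars (3.68-fold), Rars (5.14-fold) and Yars (6.66-fold).

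For histidine (0.34 ± 0.13) and isoleucine (0.28 ± 0.11) the exact permutation test gave an adjusted p of 0.0686 as deposited. The histidine difference passed after quantile normalization (1.28, exact permutation test, adjusted p = 0.0381) and cyclic loess (1.31, adjusted p = 0.0343), with Hars2 above background on no exosome array as deposited. For phenylalanine, Farsa differed from Fars2 by 0.06 ± 0.12 (adjusted p = 0.657, exact permutation test) and Farsb by -0.10 ± 0.11 (adjusted p = 0.436, exact permutation test), while Farsa passed after cyclic loess (0.37, adjusted p = 0.0343).

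**Figure D4:**
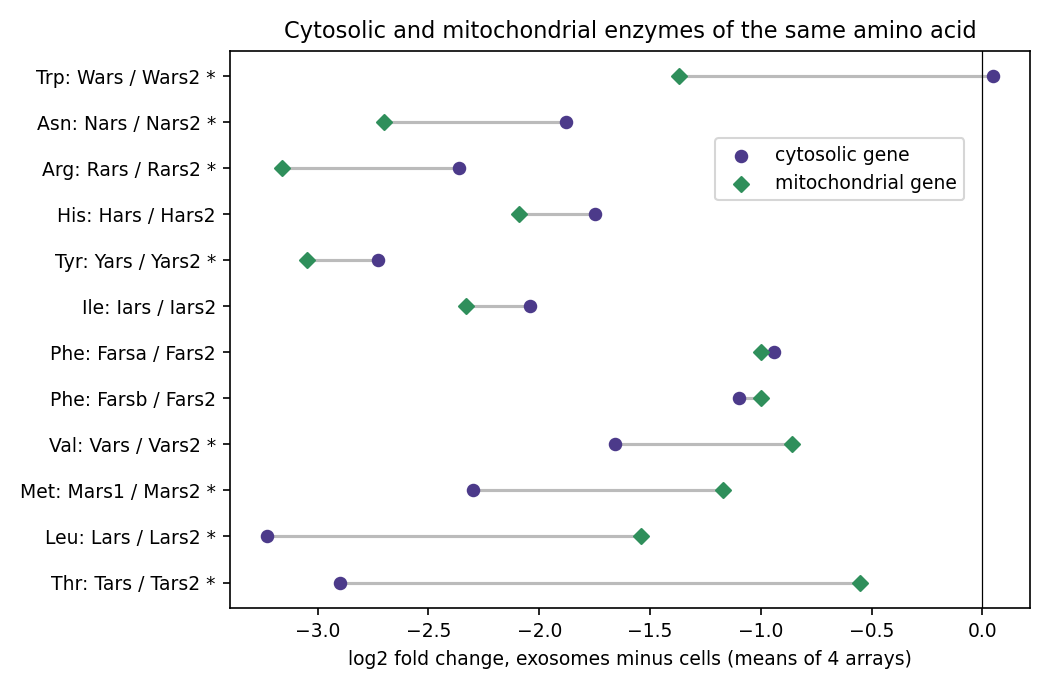
Log2 fold changes of exosomes against cells as deposited for the cytosolic (circles) and mitochondrial (diamonds) enzymes of the same amino acid, means of 4 arrays per group, in 12 pairs. Asterisks mark the 8 pairs whose changes differed (exact permutation test, adjusted p = 0.0429), from Tars and Tars2 (-2.35) to Wars and Wars2 (1.42).

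Synthetase genes raised by Atf4 on amino acid shortage were set beside other genes of that response. Of 9 measured synthetases of the list, 8 fell as deposited, with a median log2 fold change of -2.23, and Wars was the exception. The 7 cytosolic synthetases outside the list all fell, with a median of -1.58. Of 24 further genes of the response, 23 fell as deposited (median -1.56), while 16 fell and 2 rose after quantile normalization. Among genes above background in cells 79.5% fell as deposited, with a median of -1.29, and 49.2% fell and 32.2% rose after quantile normalization. In the level steps from 9 to 12 the medians as deposited were -1.75 and -1.68. The 9 synthetases of the list had mean cell levels from 9.16 to 11.57, within these steps, and their median (-2.23) lies below those medians. The 24 further genes had mean cell levels from 5.36 to 12.72, beyond these steps, so their median (-1.56) has no like-level comparison here. Atf3, a stress-induced transcription factor, fell 7.93-fold (log2 fold change -2.99 ± 0.10 SE, limma adjusted p = 4.8e-08). Aldh18a1, an enzyme of proline synthesis, fell 7.67-fold, Slc3a2, the heavy chain of amino acid transporters, 6.17-fold, and Trib3, a pseudokinase that restrains Akt, 5.79-fold, each under all 4 scalings. Stc2 was not above background on any array and did not pass the test, with a log2 fold change of -0.02 (adjusted p = 0.904), and was named after its value was seen.

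Atf4 acts through a composite element of a C/EBP part and an ATF part, and the promoters of the members were searched for it. RefSeq promoter sequences of build GRCm38.p6, from 250 bases before to 50 after the annotated start, matched 23 of the 32 genes, 9 cytosolic, 13 mitochondrial and Tarsl2. The letters TGATGNAA, on either strand, were found in 4 of the 9 cytosolic and 0 of the 13 mitochondrial genes, and in 3.97% of all 32851 promoters. The 4 genes, Gars, Iars, Tars and Yars, had fitted log2 fold changes from -2.90 to -2.01 as deposited. Mars1, whose promoter was searched and did not hold these letters, had -2.30, and the other 4 searched cytosolic genes without them, Farsa, Farsb, Kars and Qars, had -1.58 to -0.85. The promoters of Cars, Hars, Hars2, Lars, Nars, Pars2, Rars, Vars and Wars were not searched here. Whether the letters go with the size of the fall was not tested. The sequences of the 4 genes are shown to place the element, in capitals, in the 90 bases from 70 before the start. They lie at chr6:55037931-55038020 on the plus strand for Gars, chr13:49682060-49682149 on the plus strand for Iars, chr15:11399639-11399728 on the minus strand for Tars and chr4:129189833-129189922 on the plus strand for Yars.
Gars: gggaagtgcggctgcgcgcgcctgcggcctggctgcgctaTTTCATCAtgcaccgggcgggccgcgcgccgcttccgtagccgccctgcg
Iars: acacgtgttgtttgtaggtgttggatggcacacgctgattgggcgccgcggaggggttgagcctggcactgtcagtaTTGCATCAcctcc
Tars: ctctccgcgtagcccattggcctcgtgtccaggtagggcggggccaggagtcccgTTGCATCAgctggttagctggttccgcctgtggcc
Yars: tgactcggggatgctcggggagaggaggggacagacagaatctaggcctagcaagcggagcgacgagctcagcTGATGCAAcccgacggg
The match began 30 bases before the start in Gars and 15 before it in Tars, and at base 4 of the transcript in Yars and base 8 in Iars. It read in the direction of the gene in Yars and on the opposite strand in the other 3.

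The mitochondrial genes were searched for the core of the element bound by NRF1, a factor of nuclear genes for mitochondrial proteins. The letters GCATGCGC, on either strand, were found in 3 of the 13 mitochondrial and 0 of the 9 cytosolic genes, and in 2.71% of all promoters. The 3 genes differed in how they moved: Rars2 was at least 3.46-fold lower, Wars2 fell 2.58-fold and Vars2 1.81-fold as deposited, the last a rise after quantile normalization and cyclic loess. Their windows are shown for comparison, with the matches in capitals, at chr4:34614887-34614976 on the plus strand for Rars2, chr17:35667573-35667662 on the minus strand for Vars2 and chr3:99141020-99141109 on the plus strand for Wars2.
Rars2: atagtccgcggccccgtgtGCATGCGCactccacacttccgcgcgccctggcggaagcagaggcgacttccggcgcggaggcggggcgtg
Vars2: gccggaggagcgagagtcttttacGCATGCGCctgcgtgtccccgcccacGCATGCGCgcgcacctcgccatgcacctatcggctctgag
Wars2: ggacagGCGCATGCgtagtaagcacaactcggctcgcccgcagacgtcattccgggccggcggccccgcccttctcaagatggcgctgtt
Vars2 held 2 matches, beginning 46 and 20 bases before the start. The letters CACGTG, the E-box that Myc and related factors bind, were found in 3 cytosolic genes (Farsb, Iars and Tars) and 1 mitochondrial gene (Ears2), and in 7.15% of all promoters. The letters CCGGAAG, a core of ETS sites, were found in 4 cytosolic genes (Farsa, Gars, Kars and Mars1) and 3 mitochondrial genes (Mars2, Rars2 and Sars2), and in 8.86% of all promoters. Matches of different motifs overlapped in 0 cases. A match describes the sequence and does not show that a factor was bound.

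Genes of the steps around aminoacylation also fell in most cases as deposited, as did 79.5% of genes above background in cells, so these counts describe the lists and set none of them apart. Of 10 genes for tRNA-dependent amidation, formylation, selenocysteine synthesis and proofreading, 10 fell as deposited, with a median log2 fold change of -1.66, while 6 fell and 1 rose after quantile normalization. Gatb, a subunit of the amidotransferase that makes mitochondrial glutaminyl-tRNA from the product of Ears2, exceeded the background on no exosome array and was at least 1.79-fold lower. Mtfmt, which formylates the methionyl-tRNA that Mars2 makes, fell 3.38-fold, and Dtd1, which removes D-amino acids from tRNA, 3.26-fold with 3 of 4 exosome arrays above background, but Mtfmt did not pass the test after cyclic loess and Dtd1 after either normalization. Pstk, the kinase of selenocysteine synthesis, had a log2 fold change of -2.10 ± 0.13 SE, and no fold is given because its cell level (6.01) lay under the exosome threshold.

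Of 41 genes for tRNA synthesis, processing and export, 36 fell and 2 rose as deposited, with a median log2 fold change of -1.35, while 21 fell and 9 rose after quantile normalization. Trnt1, which adds the CCA end that synthetases charge, exceeded the background on no exosome array and was at least 2.89-fold lower. Pop4, a protein of RNase P, had a log2 fold change of -3.24 ± 0.12 SE, limited by the background, since 2 of 4 exosome arrays were above it and the mean of 6.38 was not. Rpp38, another protein of RNase P, was at least 1.30-fold lower. Gtf3c5, a subunit of the general factor of RNA polymerase III, fell 5.67-fold. The rises were those of Ctu1 (log2 fold change 0.42 ± 0.10 SE), which thiolates the wobble base of tRNA, and Gtf3c4 (0.25 ± 0.08), another subunit of the same factor, both named after their values were seen. With arrays centred on background genes their log2 fold changes were -0.17 and -0.34.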

How the data were processed

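Per the submitters' processing notes, the deposited log2 values were made with Affymetrix Expression Console and RMA on build mm8. The series text adds that a gene's value is the mean of its core probesets. For tool versions, the sources used here give none. The values were used as deposited, although the arrays of the groups did not share a distribution. No 2 arrays held identical values. The number of arrays limits the precision.

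Genes were named through the platform table, in which 14996 of 23332 transcript clusters had 1 symbol. All 32 members matched RefSeq by gene identifier. Groups were compared with limma (version 3.58.1, R 4.3.3) over all transcript clusters, two-sided, with Benjamini-Hochberg adjustment and no filter. Background was the 95th percentile of 836 chemosensory receptor genes. Where no exosome array exceeded it, the fold is a bound: the cell mean against the mean exosome threshold. Such bounds were taken from the values as deposited and need not hold under the other scalings. Folds are powers of 2 of log2 differences. Pairs of genes were tested by exact permutation over arrays. The members, lists and tests were chosen with earlier results of these data known. Every member was named; of each list, up to 4 called genes of largest change were.

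The fit was tested on simulated data for exosomes against cells with 23332 transcript clusters. Of clusters changed by a log2 value of 0.5, 26% were called, 76% at 1, 90% at 2 and 94% at 3, and 10 of 23132 unchanged ones. Each size was given to 50 clusters, whereas in the real comparison 42.9% of clusters were called lower and 16.4% higher. These rates need not hold for the real comparison, because the adjustment depends on how many clusters change. Alternatives covered 3 other scalings, the variance prior, weights for arrays, a filter on dim signals, blocking on replicate number, thresholds for calls and for background, and each array left out. Figures were drawn with matplotlib 3.10.9.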

Additional observations from a re-analysis of the deposited data

Results flagged for a closer look

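Rars and Cars each had 1 cell array apart from the other 3. Rars measured 11.46 in cells replicate 4, beside 11.32 to 11.34 in the others, and the gap made up 0.833 of the range. Cars measured 9.83 in the same replicate, beside 9.69 to 9.71, with a gap of 0.85 of the range. The limit for 4 values is Dixon's 0.829, and chance flags about 1 in 20 groups. Here 2 of 64 groups of values were flagged. Both gaps are small against the falls of these genes, whose log2 fold changes stayed between -2.39 and -2.32 for Rars and between -2.25 and -2.20 for Cars when any 1 array was left out.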

How the results depend on the processing

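Counts and directions changed with the scaling of the arrays. Fitted falls of at least 2-fold, with no bound applied, numbered 23 as deposited, 13 after quantile normalization and 9 after cyclic loess, and rises 7 and 8 under these normalizations. The median log2 fold change of all members was -0.64 after quantile normalization, -0.44 after cyclic loess and -2.21 with arrays centred on background genes. For cytosolic genes the values were -0.97, -0.74 and -2.54, and for mitochondrial genes -0.30, -0.24 and -1.96. The sign of the fitted value turned after quantile normalization and cyclic loess for Mars2 (0.04 and 0.08), Farsb (0.11 and 0.31), Fars2 (0.14 and 0.16), Farsa (0.44 and 0.53), Vars2 (0.52 and 0.59), Kars (0.35 and 0.55), Aars2 (0.23 and 0.24), Tars2 (0.81 and 0.92), Ears2 (0.69 and 0.67) and Tarsl2 (-0.03 and -0.09). Of these, Mars2, Fars2 and Tarsl2 passed the test under neither normalization and Farsb only after cyclic loess. With arrays centred on background genes the sign turned for Wars (-0.54) and Tarsl2 (-0.51). Between pairs, Iars minus Iars2 turned to -0.17 after quantile normalization and 0.00 after cyclic loess, Farsb minus Fars2 to 0.15 after cyclic loess, and Farsa minus Fars2 to -0.01 without exosomes replicate 2. The pair counts were 4 and 5 after quantile normalization and 4 and 6 after cyclic loess, beside 4 and 4 as deposited, the histidine pair being added by both and Farsa with Fars2 by cyclic loess. Leaving out each array in turn gave 29 falls, 0 rises and 23 to 24 fitted falls of at least 2-fold, medians of -1.66 to -1.58 for all members, -1.96 to -1.91 for cytosolic and -1.42 to -1.31 for mitochondrial genes, and 18 to 20 members above background in exosomes. The exact test cannot pass its threshold with 3 arrays against 4 (smallest p = 0.0571). With the replicate number as a block 29 members fell and 0 rose. Same-numbered arrays did not deviate together (correlations of deviations -0.055 to 0.00133), and the block changed no call. This check cannot tell whether same-numbered samples came from the same culture. The block left the pair differences as they were, and its sign-flip test could not go below an exact p of 0.125 with 4 pairs. The filter on dim signals, the trended and robust prior, the array weights and the stricter threshold each left 29 falls and 0 rises. Members above background in exosomes numbered 14 at the 99th percentile, 20 on at least 3 of 4 arrays and 24 after cyclic loess, beside 18. Each member had 1 transcript cluster, so the choice between clusters could not be varied. Signal over background limits the genes given as bounds.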
